A study of Mus musculus with 2 samples.

Results

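The genes described here are 4 chemokine genes (Ccl9, Ccl6, Ccl3 and Ccl4) and 3 whey acidic protein (WAP) domain genes (Wfdc17, Wfdc18 and Wfdc21) that lie close together on mouse chromosome 11. They are 7 of the 32285 genes in the deposited matrices and were taken by symbol. They were chosen by their measured levels in these same cells, which in earlier results differed between the libraries or between kinds of cell, so the levels are given as a description and no test of them is made. The data are 2 droplet single-cell RNA libraries, 1 per group, made from bone marrow of mice of the C57Bl6 strain that were wild type, untreated as far as the labels say, and 8 weeks old. The number of animals is not given in the sources used here. Both groups were sorted by flow cytometry from LSK cells, which lack lineage markers and carry Sca-1 and Kit. Long-term haematopoietic stem cells (LT-HSC) were gated as CD150 positive and negative for CD34, CD48 and Flk2, the product of Flt3. Short-term stem cells (ST-HSC) were gated as CD34 negative and positive for CD150 and CD48. Since each group is a single library, no replicate error can be given, and every interval below covers counting error only.

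Cells were kept with at least 1000 genes and under 10% mitochondrial UMIs, a UMI (unique molecular identifier) being the tag that marks 1 captured RNA molecule. This left 2722 cells labelled LT-HSC and 6648 cells labelled ST-HSC. Their summed depths were 64673871 and 111783180 UMIs, and their medians 17595 and 13402 UMIs per cell. Only 8 barcodes occurred in both libraries. The RNA of the library labelled ST-HSC went against its gate for CD150 and CD34, and with it for CD48. Slamf1, which encodes CD150, stood at 26.5 CPM (UMIs of the gene per 1000000 UMIs) in the LT-HSC library and 1.26 CPM in the library labelled ST-HSC, while Cd34 stood at 29.2 and 242 CPM. Cd48 stood at 35.3 and 74.7 CPM. Flt3 was at 5.50 and 291 CPM. The cells of that library are therefore called ST-HSC-labelled below. The LT-HSC library held 698 cells (25.6%) that counted for a list of erythroid markers, and these cells carried 45.0% of its UMIs. In the library labelled ST-HSC 5.32% of the cells counted for it and carried 12.1% of the UMIs. Another 300 LT-HSC cells counted for a megakaryocyte list, against 3 ST-HSC-labelled cells.

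Chemokines are small secreted proteins that steer cells through G protein-coupled receptors. Ccl3 (MIP-1 alpha) and Ccl4 (MIP-1 beta) are inflammatory chemokines, and Ccl3 acts on the receptor Ccr1 among others. Ccl3 has long been known as an inhibitor of the proliferation of immature blood progenitors. Ccl6 and Ccl9 are rodent chemokines of myeloid cells that act through Ccr1. WAP domain proteins are small, disulphide-rich and secreted, and many members of the family inhibit proteases. Wfdc17 is best known from macrophages, and Wfdc21 is expressed in neutrophils. In early blood formation Dntt, Flt3 and Satb1 mark the lymphoid direction, Mpo the granulocyte and monocyte direction, and Hlf the stem cell state.

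In map order on build mm10 (GENCODE M21) Ccl9 lies at chr11:83572919-83578636, Ccl6 at chr11:83587882-83593087 and Ccl3 at chr11:83647844-83649355, all on the minus strand. Ccl4 follows at chr11:83662584-83664683, Wfdc17 at chr11:83703991-83706268, Wfdc18 at chr11:83709015-83711348 and Wfdc21 at chr11:83746940-83752642, all on the plus strand. All 7 are protein-coding genes in that annotation, and together they span 179724 bp. The closest neighbours are Wfdc17 and Wfdc18, which are separated by 2746 bp. Ccl3 and Ccl4 point away from each other across 13228 bp. Ccl6 overlaps the antisense gene E230016K23Rik, for which the libraries held 1 (LT-HSC) and 14 UMIs. No stretch of 50 bases in the transcripts of the other 6 genes was shared with any other gene, and 59 of 2996 such stretches of Ccl9 were.

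The bases just upstream of the start are shown for the 4 genes with the clearest differences between cells for which RefSeq (GRCm38.p6) lists a promoter, so that the pairs Wfdc17 and Wfdc18, and Ccl3 and Ccl9, can be set side by side. Each is written 5′ to 3′ on the gene's own strand, and capitals mark the motifs found. Those of Wfdc18, Ccl3 and Ccl9 end at the base before the RefSeq start, and that of Wfdc17 ends 65 bases short of it, at the start of the GENCODE gene. They lie at chr11:83703806-83703990 (plus, Wfdc17), chr11:83708754-83709003 (plus, Wfdc18), chr11:83649379-83649628 (minus, Ccl3) and chr11:83578637-83578886 (minus, Ccl9).
Wfdc17: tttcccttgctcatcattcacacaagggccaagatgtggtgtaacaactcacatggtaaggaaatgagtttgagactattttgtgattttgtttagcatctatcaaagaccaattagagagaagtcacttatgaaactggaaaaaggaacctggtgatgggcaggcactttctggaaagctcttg
Wfdc18: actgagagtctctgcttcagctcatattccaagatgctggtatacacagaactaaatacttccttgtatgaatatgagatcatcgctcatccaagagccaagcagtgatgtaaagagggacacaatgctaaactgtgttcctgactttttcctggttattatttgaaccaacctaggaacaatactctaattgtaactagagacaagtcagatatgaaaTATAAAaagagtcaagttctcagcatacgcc
Ccl3: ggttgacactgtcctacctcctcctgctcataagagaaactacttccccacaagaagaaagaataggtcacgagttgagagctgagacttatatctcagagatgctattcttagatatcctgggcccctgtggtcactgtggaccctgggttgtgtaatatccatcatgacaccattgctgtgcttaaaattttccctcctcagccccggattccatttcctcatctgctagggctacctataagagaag
Ccl9: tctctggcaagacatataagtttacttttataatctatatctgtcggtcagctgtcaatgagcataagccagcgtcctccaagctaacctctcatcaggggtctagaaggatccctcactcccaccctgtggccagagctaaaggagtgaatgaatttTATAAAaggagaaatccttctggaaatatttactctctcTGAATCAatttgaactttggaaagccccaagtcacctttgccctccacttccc
RefSeq listed a promoter for 5 of the 7 genes, the 4 shown and Ccl6. Those 5 were searched for TATAAA on the gene's strand, and on both strands for the motifs of AP-1 (TGANTCA), PU.1 (GAGGAAGT), C/EBP (TTGCNNAA) and CREB (TGACGTCA). Wfdc18 held TATAAA from base -31 to -26, counted back from the start. Ccl9 held TATAAA from -92 to -87 and TGAATCA from -53 to -47, and these 3 matches do not overlap any other. TATAAA occurs in 7.59% of 32851 promoters of 250 bases and TGANTCA in 6.75%. Wfdc17, Ccl3 and Ccl6 held none of the 5 motifs, of which the others are found in 2.44% (PU.1), 9.56% (C/EBP) and 1.55% (CREB) of promoters. For Wfdc17 all 250 bases up to the RefSeq start were searched, including the 65 next to that start that are not shown above.

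Across all kept cells, summed to 1 value per library, every one of the 7 genes had a higher CPM in the library labelled ST-HSC. Wfdc17 had 293 UMIs (4.53 CPM) in the LT-HSC library and 19263 UMIs (172 CPM) in the library labelled ST-HSC, a ratio of 38.0 (95% exact interval 33.9 to 42.8). Its neighbour Wfdc18 had 25 UMIs (0.39 CPM) and 1593 UMIs (14.3 CPM), a ratio of 36.9 (24.9 to 57.1). These ratios of the adjacent WAP genes overlapped in their intervals.

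Ccl3 had the highest ratio of the 4 chemokines, within an interval that overlapped that of Ccl9, with 29 UMIs (0.45 CPM) in the LT-HSC library against 4228 UMIs (37.8 CPM), a ratio of 84.4 (58.6 to 126). Ccl4, its neighbour, had 1399 UMIs (21.6 CPM) against 8513 UMIs (76.2 CPM), a ratio of 3.52 (3.33 to 3.73). Ccl4 was the only gene of the 7 with more than 1000 UMIs in both libraries, and its ratio lay below the intervals of the other 6. Without the cells that counted for the megakaryocyte or erythroid lists, the Ccl4 ratio was 1.93 and no longer reached 2, while that of Wfdc17 was 19.8 and that of Ccl3 was 46.9.

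Ccl9 had 24 UMIs (0.37 CPM) against 2688 UMIs (24.05 CPM), a ratio of 64.8 (43.5 to 101). Ccl6 had 12 and 169 UMIs (0.19 and 1.51 CPM), and Wfdc21 had 6 and 368 UMIs (0.09 and 3.29 CPM). Those last 2 genes fell under the mean of 5 CPM that a gene needed to be counted as past a fold or not. Of the 5 genes that met it, all 5 were at least 2-fold higher in the library labelled ST-HSC, as were 10.8% of the 10412 genes that met it; 2.88% were at least 2-fold lower. Since this contrast served to pick the genes, nothing is read from that count.

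The share of cells with a UMI was read after drawing 5000 UMIs from each cell (thinning), and 68 LT-HSC and 281 ST-HSC-labelled cells were too shallow for it. Wfdc17 was detected in 2.68% of LT-HSC and 37.8% of ST-HSC-labelled cells (5.95% and 54.0% without thinning). Ccl4 was detected in 11.45% and 22.3% (23.8% and 37.2% without thinning). Ccl3 was in 0.23% and 12.4%, Ccl9 in 0.30% and 9.38% and Wfdc18 in 0.45% and 7.18% (0.92% and 21.6%, 0.84% and 20.7%, and 0.81% and 13.9% without thinning). Ccl6 was in 0.61% and Wfdc21 in 0.42% of thinned ST-HSC-labelled cells.

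As a gauge of free RNA, which gives UMIs in cells that do not express a gene, the cells that counted for the erythroid list were read in the same way. In the library labelled ST-HSC these were 354 cells with a median of 38931 UMIs. After thinning, Wfdc17 was detected in 5.59% of them, Ccl4 in 1.76%, Ccl3 in 0.88% and Ccl9 and Wfdc18 in 0.29% each, all below the shares over the whole library. In the LT-HSC library the erythroid-list cells had a median of 36768 UMIs, and Ccl4 was detected in 0.86% of them after thinning, Wfdc17 and Ccl9 in 0.14% each and Ccl3 and Wfdc18 in 0 of 697 cells. The LT-HSC shares of Ccl4 and Wfdc17 over all cells were above these values, while the 0.30% for Ccl9 had an interval (0.13% to 0.59%) that included its background. The intervals for Ccl3 (0.083% to 0.49%) and Wfdc18 (0.23% to 0.79%) overlapped the 0% to 0.53% of the erythroid-list cells, so these 3 low shares are not read as expression. Over all cells the medians were lower, at 13402 (ST-HSC-labelled) and 17595 UMIs (LT-HSC). Free RNA can make up a smaller part of a deep cell, so the gauge may be too low for shallower cells, which was not tested.

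**Figure D1:**
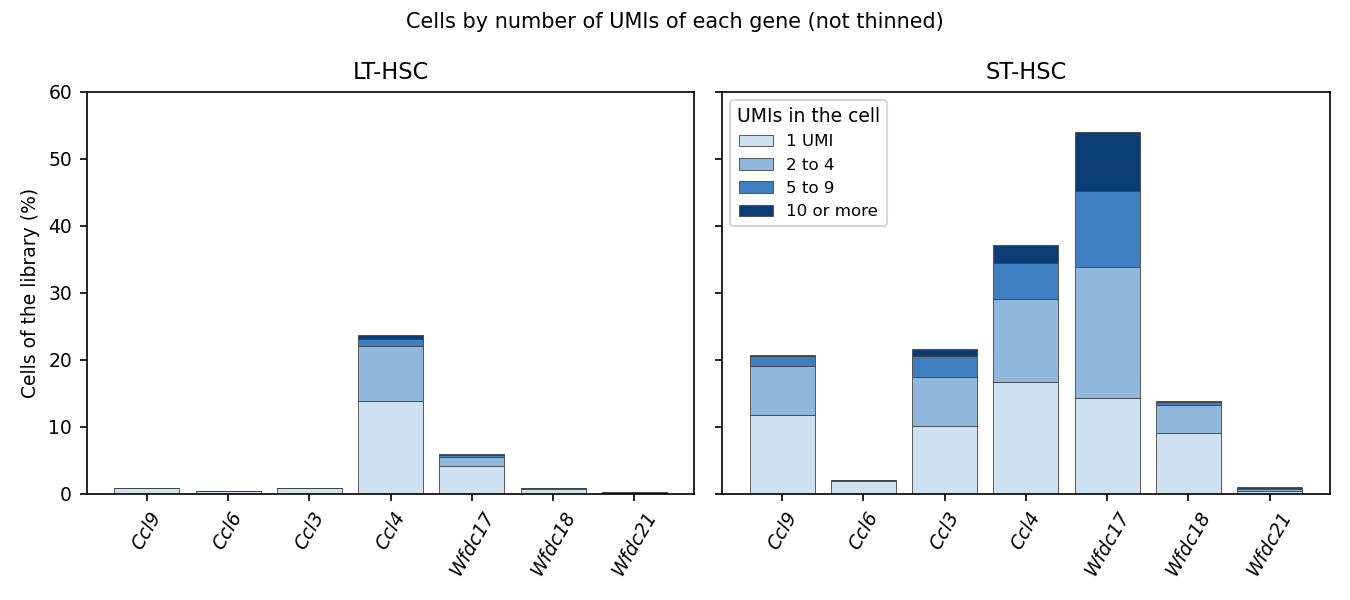
Share of cells (%) in each library that held 1, 2 to 4, 5 to 9, or 10 or more UMIs of each gene, without thinning. Wfdc17 reached 54.0% of ST-HSC-labelled cells and had the most cells with 10 or more UMIs (584), and Ccl4 was the only gene above 6% of LT-HSC cells.

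Most neighbours of the 7 genes that met the 5 CPM limit were within 2-fold between the libraries, as were most genes of the files that met it. Within 500 kb of the span the files hold 27 other genes, of which 4 had no UMI and 11 met the 5 CPM limit. Ccl5, another inflammatory chemokine, was the only one of the 11 past 2-fold, at 7.47 and 19.8 CPM (ratio 2.66). Over all 10412 genes that met the limit, 10.8% were at least 2-fold higher and 2.88% at least 2-fold lower. The count among the neighbours is near those shares, so it does not mark them out. Below the limit, 1700020L24Rik (68 and 428 UMIs) was at a ratio of 3.64 (2.81 to 4.78) and AA465934 (354 and 299 UMIs) at 0.49 (0.42 to 0.57). Without the megakaryocyte-list and erythroid-list cells 0 of the neighbours that met the limit were at least 2-fold higher. The log2 ratio of the 11 ran from -0.42 to 1.41 with a median of 0.22, against a median of 0.12 over all 10412 genes. Heatr6, the next gene after Wfdc21, stood at 34.7 and 43.1 CPM. Taf15, an RNA-binding protein gene on the other side, stood at 143 and 166 CPM, and Acaca, which encodes the acetyl-CoA carboxylase of fatty acid synthesis, at 42.8 and 75.7 CPM. Others of the 11 were AI662270 (137 and 150 CPM), Ap2b1 (60.1 and 85.4), Slfn3 (5.47 and 9.55), Ddx52 (40.7 and 40.2), Synrg (46.9 and 48.5) and Tada2a (38.3 and 28.6).

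**Figure D2:**
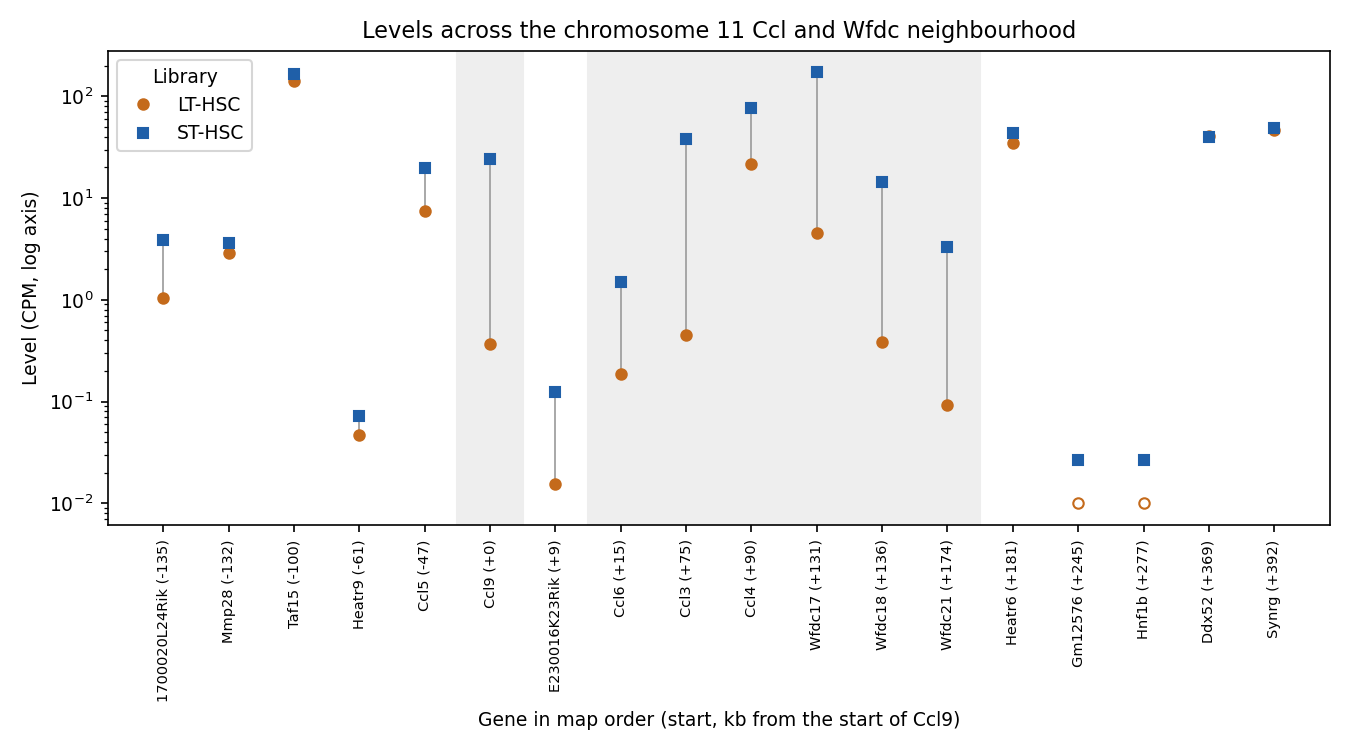
Level (CPM, log axis) of each gene with a UMI that starts within 250 kb of the starts of the 7 genes, in map order, with the distance of its start from the start of Ccl9 in kb; circles are the LT-HSC library, squares the library labelled ST-HSC, open symbols mark a gene with no UMI in that library, and grey bands mark the 7 genes. The gaps are wide in the grey bands, Ccl4 having the narrowest there (21.6 to 76.2 CPM), and also at 1700020L24Rik (68 and 428 UMIs) and the antisense gene E230016K23Rik (1 and 14 UMIs), while Heatr6, Ddx52 and Synrg lie nearly on top of each other.

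To compare like cells, 3 sets were used that may overlap. Dntt-positive and Mpo-positive cells had at least 3 UMIs of the gene, and Hlf-high cells had at least 5 Hlf UMIs per 10000. The library labelled ST-HSC held 1362 Dntt-positive, 768 Mpo-positive and 2810 Hlf-high cells, with medians of 17156.5, 24842 and 11103.5 UMIs, and 2373 cells in none of them. Overlaps were 406 cells for Dntt with Hlf, 187 for Dntt with Mpo and 117 for Mpo with Hlf. The LT-HSC library held 445 Hlf-high cells, 1 Dntt-positive cell and 0 Mpo-positive cells, which allows a share of up to 0.110%. By marker lists, 80.8% of the Dntt-positive cells counted for the lymphoid list and 48.8% of the Mpo-positive cells for the neutrophil and monocyte progenitor list. Of the ST-HSC-labelled Hlf-high cells, 99.4% counted for the stem cell list. Over all ST-HSC-labelled cells the shares for these lists were 24.1%, 6.05% and 77.0%. Each list holds the gene that defines its set, so the match is partly built in and is no independent check of the sets.

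Within the Hlf-high cells, Ccl4 and Ccl3 parted. Ccl4 stood at 84.8 CPM (502 UMIs) in LT-HSC Hlf-high cells and 100.2 CPM (4135 UMIs) in ST-HSC-labelled ones, a ratio of 1.18 (1.08 to 1.30), and after thinning was detected in 27.4% (23.2% to 31.8%) and 27.1% (25.5% to 28.9%) of them. The level and the share of Ccl4 were thus close in the stem-like cells of both libraries. Ccl3 stood at 2.03 CPM (12 UMIs) and 50.2 CPM (2070 UMIs), a ratio of 24.7 (14.1 to 48.0), and was detected in 0.46% and 15.2% of thinned cells. So cells above the same Hlf threshold held Ccl4 in both libraries, and Ccl3 mainly in the library labelled ST-HSC.

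Wfdc17 stood at 20.4 CPM (121 UMIs) in LT-HSC Hlf-high cells and 232 CPM (9572 UMIs) in ST-HSC-labelled ones, a ratio of 11.3 (9.49 to 13.7), and was detected in 8.12% and 43.6% of thinned cells. Wfdc18 stood at 2.03 CPM (12 UMIs) and 20.6 CPM (852 UMIs), a ratio of 10.2 (5.80 to 19.8). Both ratios were lower than over all cells. That of Wfdc18, which rests on 12 LT-HSC UMIs, ran from 6.61 to 30.1 over 6 alternatives, the highest with the threshold at 10 Hlf UMIs per 10000. Ccl9 had 4 UMIs against 645 (0.68 and 15.6 CPM), a ratio of 23.1 with a wide interval (8.99 to 85.2). Ccl6 had 7 and 43 UMIs (1.18 and 1.04 CPM), and its ratio of 0.88 had an interval of 0.39 to 2.32. Wfdc21 had 0 and 16 UMIs, where 3 counts in LT-HSC Hlf-high cells would be 0.51 CPM against the 0.39 CPM measured in the others, so a difference was not detectable at this depth.

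Among Hlf-high cells 5 of the genes met the 5 CPM limit. Of these 4, all but Ccl4, were at least 2-fold higher in the ST-HSC-labelled cells, as were 6.96% of 10766 genes, and 5.02% were at least 2-fold lower. Ccl9, Ccl3 and Wfdc18 met the limit only through the ST-HSC-labelled cells, and the genes were picked by such differences. Nothing is read from that count. The shares of Ccl9, Ccl3 and Wfdc18 over all LT-HSC cells were not told apart from free RNA above, so the sizes of their ratios are uncertain. Cycling moved with this comparison, since 2.32% of LT-HSC and 21.4% of ST-HSC-labelled Hlf-high cells counted as cycling. Among those not cycling the ratio was 1.33 for Ccl4, 31.5 for Ccl3, 15.2 for Wfdc17 and 12.6 for Wfdc18. The lymphoid list also moved with it, at a summed level of 40.7 CPM in the LT-HSC and 693 CPM in the other Hlf-high cells, with 0 of 445 and 530 of 2810 cells counting for the list and Il7r at 0 in the former. Its part in the result was not tested. In Hlf-high cells outside the other sets the ratios were 1.16 for Ccl4, 22.9 for Ccl3 and 10.5 for Wfdc17.

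Inside the LT-HSC library, Ccl4 and Wfdc17 followed Hlf. Ccl4 stood at 84.8 CPM in Hlf-high cells and 15.3 CPM in all others, a ratio of 5.55 (4.97 to 6.20). Wfdc17 stood at 20.4 and 2.93 CPM, a ratio of 6.98 (5.49 to 8.86). They were the only 2 of the 7 genes that met the 5 CPM limit there. Wfdc17, at 2.93 CPM in the other cells, met it only through the Hlf-high cells, so nothing is read from that count. Of 10531 genes, 17.2% were at least 2-fold higher in the Hlf-high cells and 6.74% at least 2-fold lower. Below the limit, Wfdc18 (12 and 13 UMIs) was at a ratio of 9.16 (3.82 to 21.8) and Ccl3 (12 and 17 UMIs) at 7.01 (3.05 to 15.6). Ccl6 (7 and 5 UMIs) was at 13.9 (3.80 to 55.5) and Ccl9 (4 and 20 UMIs) at 1.98 (0.49 to 5.92). Wfdc21 had 0 and 6 UMIs. Over all LT-HSC cells the shares of Wfdc18, Ccl3 and Ccl9 were not told apart from free RNA, so their ratios here are not read as expression. The other LT-HSC cells include nearly all of the 698 erythroid-list cells, 1 of which was Hlf-high.

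Inside the library labelled ST-HSC the Dntt-positive cells had, among the 3 sets and the cells of no set, the highest level of 4 of the genes. Wfdc17 stood at 299 CPM in Dntt-positive cells (232 in Hlf-high, 91.1 in Mpo-positive and 93.0 in cells of no set) and was detected in 64.4% of thinned Dntt-positive cells (86.7% without thinning). Wfdc18 stood at 24.9 CPM there (20.6 in Hlf-high, 5.26 in Mpo-positive and 6.49 in cells of no set). Both WAP genes thus had the order Dntt-positive, Hlf-high, then the others, with intervals that did not overlap between the leading sets.

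Ccl3 stood at 61.7 CPM in Dntt-positive cells, 50.2 in Hlf-high, 26.9 in Mpo-positive and 20.8 in cells of no set. Ccl4 stood at 112, 100.2, 55.2 and 46.7 CPM in the same order. Over all other cells of the library, the Dntt-positive cells were 2.32 times higher for Wfdc18, 2.29 for Wfdc17 and 2.06 for Ccl3, and 1.73 for Ccl4 and 1.47 for Ccl9. That is 3 of the 5 genes meeting the limit at 2-fold or more, where 0.876% of 10503 genes were. A further 2.02% were at least 2-fold lower. Since the genes were picked by differences between libraries or kinds of cell, nothing is read from that count of 3. With the threshold at 10 Dntt UMIs the count was 0, with log2 ratios of 0.96 for Wfdc18, 0.74 for Wfdc17 and 0.75 for Ccl3.

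Hlf-high cells stood above the other ST-HSC-labelled cells by less, at 1.96 for Wfdc18, 1.69 for Wfdc17, 1.64 for Ccl3 and 1.61 for Ccl4. None of the 5 genes that met the limit reached 2-fold in either direction, where 2.74% of 10570 genes were at least 2-fold higher and 2.41% at least 2-fold lower. Wfdc18 alone was at least 2-fold higher with the threshold at 10 Hlf UMIs per 10000 or without the cells of the highest doublet scores. Ccl9 was lower in Hlf-high cells, at a ratio of 0.54. Over 5 alternatives its ratio ran from 0.399 to 0.539, the lowest of them past 2-fold lower.

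Ccl9 and Wfdc21 went with Mpo instead. Ccl9 stood at 64.6 CPM in Mpo-positive cells, 31.7 in Dntt-positive, 15.6 in Hlf-high and 9.57 in cells of no set, and 51.6% of its 2688 UMIs were in Mpo-positive cells, which carried 19.2% of the library's UMIs. It was detected in 27.3% of thinned Mpo-positive cells (65.5% without thinning). Wfdc21 stood at 16.1 CPM in Mpo-positive cells and between 0.13 and 0.39 CPM in the other sets. Over all other cells the ratio was 4.49 (4.16 to 4.85) for Ccl9 and 66.1 (43.0 to 107) for Wfdc21. That is 2 of the 6 genes meeting the limit at 2-fold higher or more, as were 0.951% of 10413 genes. Wfdc21, at 0.24 CPM in the other cells, met the limit only through the Mpo-positive cells. The genes were also picked by differences between libraries or kinds of cell, so nothing is read from that count.

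The WAP neighbours of Wfdc21 went the other way. Wfdc18 was 3.12-fold lower (2.57 to 3.81) and Wfdc17 2.10-fold lower (2.01 to 2.21) in Mpo-positive cells. These are 2 of the 6 genes, where 3.03% of genes were at least 2-fold lower, and nothing is read from that count either. With the threshold at 1 Mpo UMI neither reached 2-fold, at log2 ratios of -0.85 for Wfdc18 and -0.66 for Wfdc17. Ccl3 and Ccl4 had ratios of 0.66 and 0.68. Within 1 run of adjacent genes, then, Wfdc17 and Wfdc18 were low in the set where Wfdc21 had its highest level.

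Wfdc21 was concentrated in few cells. The 66 cells with most of it (1% of the library) held 99.7% of its 368 UMIs, 9 cells held 50%, and 94.0% lay in Mpo-positive cells. The 6 cells that counted for the mature neutrophil list held 111 of the UMIs (30.2%), with a UMI in 5 of them. Without these 6 cells its log2 ratio of Mpo-positive over other cells was 5.50, against 6.05 with them. Wfdc17 was the opposite case, with 11.4% of its UMIs in its top 66 cells and 572 cells holding 50%.

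Cells of rarer kinds carried part of the chemokine UMIs, some at higher levels than the sets. The 45 cells that counted for the basophil and mast cell list held 268 Ccl4, 88 Ccl3 and 68 Ccl9 UMIs, which is 3.15%, 2.08% and 2.53% of the totals. Their levels of Ccl4 (304 CPM, 269 to 343) and Ccl3 (99.8 CPM, 80.1 to 123) were above those of Dntt-positive cells. The highest Ccl4 cell of the library, with 178 UMIs, counted for the NK or T cell list, and only 7.46% of the 134 cells of that list had a Ccl4 UMI. Ccl6, the rarest chemokine of the 4, had 53 of its 169 UMIs (31.4%) in the 312 dendritic-list cells and 15 in the 28 macrophage-list cells.

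**Figure D3:**
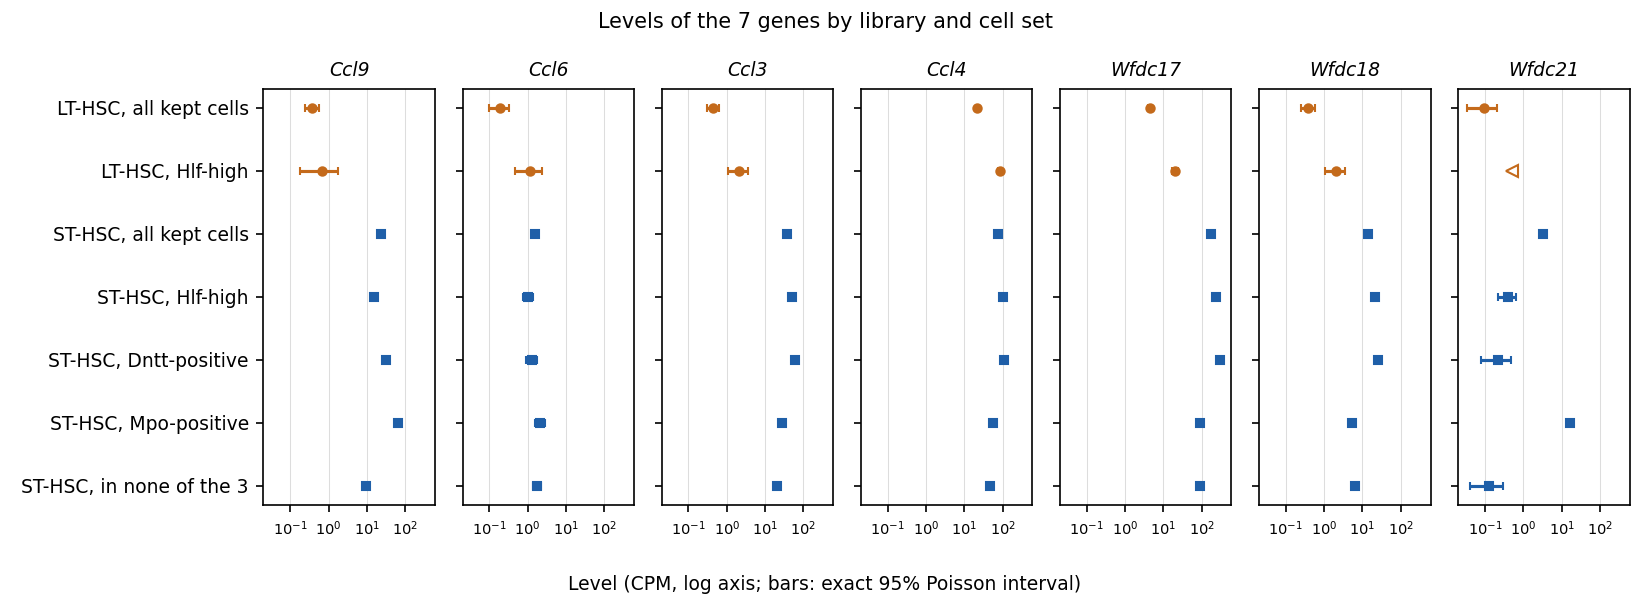
Level (CPM, log axis) of each gene in the cell sets of each library, with exact 95% Poisson intervals as bars; circles are LT-HSC, squares ST-HSC-labelled cells, and the open triangle marks 0 UMIs, drawn at the level of 3 counts. Ccl4 is nearly level between the Hlf-high cells of both libraries (84.8 and 100.2 CPM), Wfdc17 peaks in Dntt-positive cells (299 CPM), and Ccl9 and Wfdc21 peak in Mpo-positive cells.

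Cells in cycle had lower levels of Wfdc17, Wfdc18 and Ccl3. A cell counted as cycling when a list of cell cycle genes made up at least 1% of its UMIs after thinning, which took in 540 of 1349 Dntt-positive and 575 of 2693 Hlf-high ST-HSC-labelled cells. In Dntt-positive cells Wfdc17 stood at 159 CPM in cycling and 445 CPM in other cells, 2.79-fold lower in cycle (2.66 to 2.93), Wfdc18 was 3.04-fold lower and Ccl3 2.49-fold lower. In Hlf-high cells Wfdc17 stood at 101 and 289 CPM, 2.86-fold lower, Wfdc18 was 3.84-fold lower and Ccl3 2.44-fold lower. The 3 genes past 2-fold were the same in both sets, out of 5 that met the limit. At least 2-fold lower in cycle were 0.992% of genes in Dntt-positive and 1.21% in Hlf-high cells. At least 2-fold higher were 3.23% and 3.76%. The split was chosen after values were seen, so nothing is read from the count of 3.

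Ccl4 was lower in cycle by less, 1.69-fold in Dntt-positive and 1.94-fold in Hlf-high cells, and Ccl9 by 1.18-fold (1.03 to 1.35) and 1.16-fold (0.98 to 1.38). Depth moved with the split, since cycling cells had a median of 21735 UMIs against 12975 among Dntt-positive cells and 19379 against 9992.5 among Hlf-high cells. Counted per cell rather than per UMI, Wfdc17 was at 7.43 UMIs in the other and 4.14 in the cycling Dntt-positive cells, Wfdc18 at 0.63 and 0.32, and Ccl3 at 1.48 and 0.93, which is 1.79-fold, 1.95-fold and 1.60-fold lower. Ccl4 was at 2.34 and 2.17 UMIs per cell, and Ccl9 was higher per cell in cycle, at 0.76 against 0.57. So Wfdc17, Wfdc18 and Ccl3 were lower in cycling cells on both scales, and the direction for Ccl9 turned with the scale.

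The genes were then followed within single cells. After thinning, 55.4% of ST-HSC-labelled cells had at least 1 of the 7 genes, 24.5% at least 2 and 8.59% at least 3. In the LT-HSC library the shares were 13.8%, 1.43% and 0.15%. At least 2 were found in 42.7% of Dntt-positive, 28.1% of Hlf-high and 22.0% of Mpo-positive ST-HSC-labelled cells, and in 0.59% of erythroid-list cells.

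Detection was then read pair by pair. Over thinned ST-HSC-labelled cells, Wfdc17 was in 78.6% (74.5% to 82.2%) of cells with Wfdc18 and 34.6% (33.4% to 35.9%) of cells without it, and Wfdc18 was in 14.9% of cells with Wfdc17 and 2.47% of cells without it. Ccl4 was in 45.96% (42.4% to 49.5%) of cells with Ccl3 and 18.9% of cells without it, and Ccl3 was in 25.6% of cells with Ccl4 and 8.65% of cells without it. Pairs that are not adjacent could be as strong, the share of cells with Ccl3 being 2.87 times as large with Wfdc17 as without it and 2.96 times as large with Ccl4. Ccl3 was in 17.1% of cells with Ccl9 and 11.96% of cells without it, a smaller gap. Ccl6, the neighbour of Ccl9, was in 1.68% (0.81% to 3.06%) of cells with Ccl9 and 0.50% (0.34% to 0.72%) of cells without it, from 10 and 29 cells. Wfdc21 went the other way from Wfdc17, found in 1 of 2406 cells with Wfdc17 (0.001% to 0.23%) and 26 of 3961 without (0.43% to 0.96%). It was in 0 of 457 cells with Wfdc18 (0% to 0.80%) and 27 of 5910 without (0.30% to 0.66%), and these intervals overlapped.

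The pairing was also read within each set, since the sets differ in the levels of these genes. Within Dntt-positive cells Wfdc17 was in 80.0% of cells with Wfdc18 and 62.0% of those without, and Ccl4 in 49.5% of cells with Ccl3 and 27.1% of those without. Within Hlf-high cells the shares were 81.0% and 39.9% for Wfdc17, and 42.4% and 24.4% for Ccl4. Within Mpo-positive cells Ccl3 was in 25.5% of cells with Ccl4 and 5.78% of those without. Ccl4 went with Wfdc17 less inside Dntt-positive cells, at 33.7% with and 28.1% without. The result for Ccl9 differed by set and partner. Inside Dntt-positive cells Ccl4 was in 29.9% of cells with Ccl9 and 32.0% of those without, while inside Hlf-high cells Wfdc17 was in 63.6% and 42.1% and Ccl3 in 22.8% and 14.6%. In cells of no set Wfdc17 was in 49.1% of cells with Ccl9 and 23.6% of those without. Over all cells of the LT-HSC library Wfdc17 was in 6.91% (4.33% to 10.4%) of cells with Ccl4 and 2.13% of those without. Within its Hlf-high cells the shares were 10.2% (5.37% to 17.1%) and 7.35% (4.71% to 10.8%), with intervals that overlapped.

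**Figure D4:**
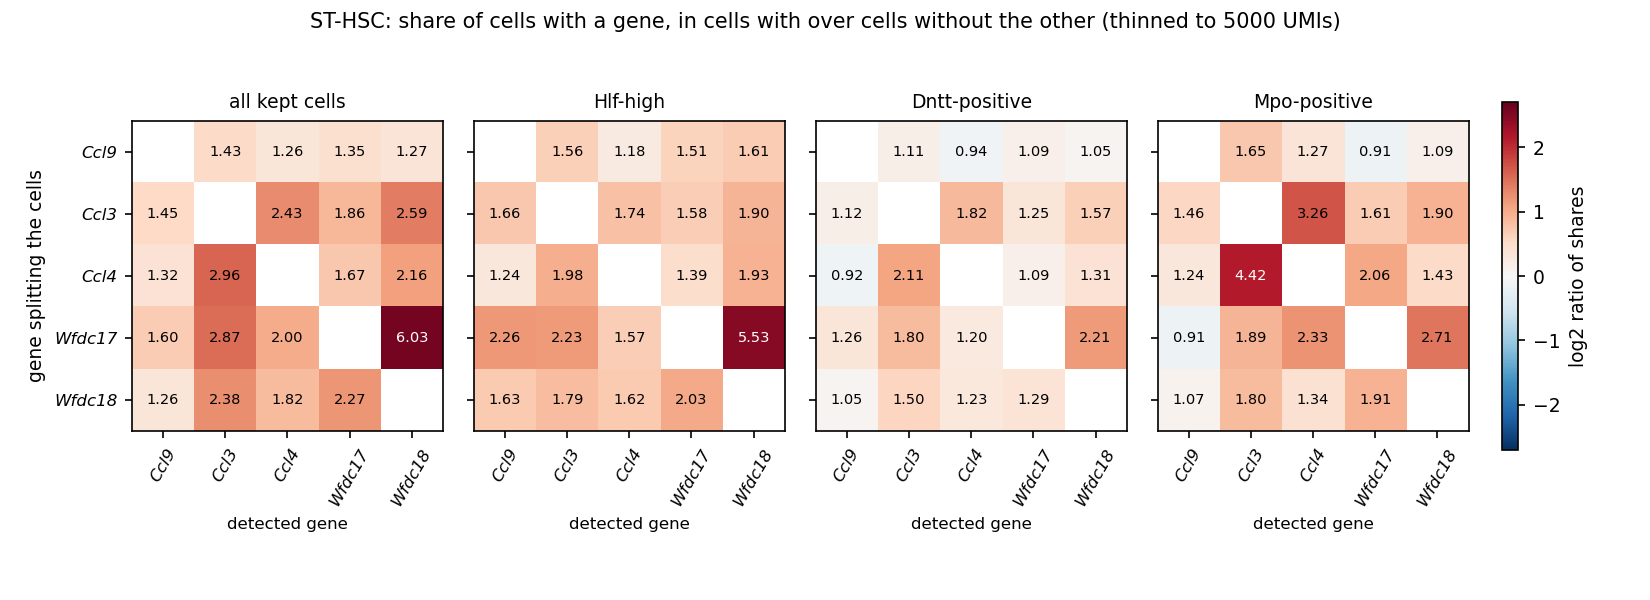
Share of thinned ST-HSC-labelled cells with the gene in the column, in cells with over cells without the gene in the row, for all cells and each set; the number is the ratio of the shares and the colour its log2. Over all cells the ratio is 6.03 for Wfdc18 in cells with Wfdc17 and 2.96 for Ccl3 in cells with Ccl4, and in Dntt-positive cells the Ccl9 row is near 1 for the 4 genes plotted against it.

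The genes most like each one were taken by Pearson's r of log counts per 10000 over the 6648 ST-HSC-labelled cells of 1 library, against 13871 genes, as a description of cells that also share their depth and their set. For Wfdc17 these were Flt3 (0.50), the cytokine receptor of lymphoid-primed progenitors, Satb1 (0.37), a chromatin organiser of lymphoid cells, its neighbour Wfdc18 (0.37), H2afy (0.36) and Sema3d (0.36). For Wfdc18 the highest was Wfdc17 (0.37), and the next 4, Flt3, AA467197, Ddx4 and Hoxa9, ranged from 0.26 to 0.20. For Ccl3 the highest were Ccl4 (0.36) and Wfdc17 (0.29), then Mef2c, Flt3 and Bcl2l11 (0.26 to 0.24). For Ccl4 they were Ccl3 (0.36), Wfdc17 (0.29), Rgs1, Pde4b and Mef2c (each 0.28). For Ccl9 they were the granule genes Mpo (0.38) and Ctsg (0.35), then Rab44, Plac8 and Atp8b4 (0.28 to 0.27). Wfdc17, Wfdc18, Ccl3 and Ccl4 thus each had at least 1 other of the 7 genes among their nearest 5, and Ccl9 had none, with an r of 0.11 to Wfdc17.

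Genes that respond quickly to stimulation of a cell, such as Fos, Junb and Nfkbia, were read as a list of 18, since dissociation and sorting can induce them along with Ccl3 and Ccl4. Of these, 16 met the 5 CPM limit. Between libraries 3 were at least 2-fold higher in the library labelled ST-HSC, namely Tnf (2.81 and 8.07 CPM), Nfkbiz and Nfkbid, and 5 were at least 2-fold lower, namely Ier2 (465 and 138 CPM), Egr1 (189 and 64.2 CPM), Nfkbia, Junb and Cd69. The median log2 ratio of the list was -0.52, against 0.12 over all genes. The other 8 were past 2-fold in neither direction. Of all 10412 genes, 10.8% were at least 2-fold higher and 2.88% at least 2-fold lower. Tnf met the limit only through the library labelled ST-HSC. The mix of cells also differed between the libraries, and its part in these ratios was not tested.

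ST-HSC-labelled cells with a Ccl3 UMI after thinning had 2.81 times the Ccl4 level of cells without one in the Dntt-positive set (236 and 84.0 CPM) and 2.59 times in the Hlf-high set (208 and 80.4 CPM). Wfdc17 was higher by 1.57 and 2.12 times. Only Cxcl2, a neutrophil-attracting chemokine, was past 2-fold among the 16 list genes, at 2.73 and 2.97 times, but the list's median log2 ratio was 0.67 and 0.53, against -0.01 and -0.02 over all genes. For scale, 0.106% of genes in the Dntt-positive and 0.311% in the Hlf-high set were at least 2-fold higher, and 0.307% and 0.169% at least 2-fold lower. Whether handling had a part in the Ccl3 and Ccl4 levels was not tested.

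Ccr1, the receptor shared by Ccl3, Ccl6 and Ccl9, was scarce, with 4 UMIs among all LT-HSC cells and 39 among the ST-HSC-labelled ones, and Ccr3 had 7 and 23. Of the list of 23 chemokine receptors 4 met the limit and 2 of these were past 2-fold, both higher in the library labelled ST-HSC. They were Ccr2 (5 and 2114 UMIs), the receptor of monocyte-attracting chemokines, and Xcr1 (1 and 1176 UMIs), a receptor of cross-presenting dendritic cells. Cxcr4, which holds stem cells in the marrow, was at 10.3 and 17.5 CPM, and Ccrl2 at 13.7 and 11.2 CPM. Of the 21 CC chemokine genes 6 met the limit and 4 were at least 2-fold higher: Ccl3, Ccl9, Ccl4 and Ccl5. Ccl25 (25.7 and 28.7 CPM) and Ccl27a (12.7 and 11.6 CPM) lie outside the neighbourhood and were nearly level. Of the 23 WAP domain genes 4 met it and 3 were higher, Wfdc17, Wfdc18 and Slpi, a protease inhibitor of mucosa and leukocytes that is not on this stretch of chromosome 11 (2.07 and 9.95 CPM, ratio 4.80). Wfdc2 was lower but not past 2-fold, at 14.1 and 7.72 CPM. Over all 10412 genes that met the limit, 10.8% were at least 2-fold higher and 2.88% at least 2-fold lower. Ccr2, Xcr1, Slpi, Ccl3, Ccl9, Wfdc17 and Wfdc18 met it only through the library labelled ST-HSC. The lists also include the 7 genes themselves, so nothing is read from these counts.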

How the data were processed

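Bone marrow HSCs were profiled in 2 droplet libraries, 1 per group, with the 10x Genomics 3' kit per the labels. The authors deposited raw UMI counts per gene and barcode. Cell Ranger 7.2 and build mm10 are named per the submitters' processing notes, and Cell Ranger 7.1.0 per the file headers. From these counts CPM, ratios with exact conditional binomial intervals, CPM with exact Poisson intervals and shares with exact Clopper-Pearson 95% intervals were computed, which cover counting error only. A count of 0 was given a floor of 3 counts. With 1 library per group no test was made. The 7 genes, the gene lists and the cell type markers were chosen with earlier results of these data known. The comparison within Hlf-high cells, the cycling split and the Ccl3-positive split were chosen after values were seen.

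A few genes are not reported here. Named genes were the 7 genes, up to 4 genes of each list with the largest absolute log2 ratio plus Ccr1 and Ccr3, window genes with a mean of at least 5 CPM, and the 5 genes with the highest r; other genes of the lists (Fos, Junb, Tnf and the rest), 1700020L24Rik and AA465934 were named after their values were seen. A cell counted for a marker list with at least 3 of its genes and 0.1% of its UMIs. Gene IDs were matched to GENCODE M21 for 32158 of 32285. No cells were removed as doublets, since Scrublet (scanpy 1.11.5) marked 7 LT-HSC and 0 ST-HSC cells; the alternative left out 40 and 402 cells of the highest scores. Their median UMI counts were 53026 and 30015.5. Alternatives used edgeR 4.0.16 (TMM), numpy 2.4.6 and scipy 1.17.1. Ratios, intervals and thinning were tested on simulated data.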

Additional observations from a re-analysis of the deposited data

Results flagged for a closer look

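Ccl6 stood out by its direction with Hlf. In the library labelled ST-HSC its level in Hlf-high cells was 0.583 times that of the other cells (interval 0.402 to 0.830; 43 and 126 UMIs), whereas in the LT-HSC library it was 13.9 times that of the other cells (3.80 to 55.5), from 7 and 5 UMIs. The difference between the libraries was not tested, and the LT-HSC value rests on 12 UMIs in all. The 312 dendritic-list cells of the library labelled ST-HSC, of which 16 were Hlf-high, held 53 of its 169 Ccl6 UMIs. Without the basophil, NK or T, dendritic and macrophage list cells the log2 ratio in the library labelled ST-HSC was -0.25, against -0.78 with them.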

How the results depend on the processing

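No direction of a gene past 2-fold turned under any alternative run, and no paired analysis was possible because each group has 1 library. Over 9 alternatives of cells, scale and weighting, the ratio of ST-HSC over LT-HSC ran from 19.8 to 40.1 for Wfdc17, 46.9 to 93.2 for Ccl3, 44.5 to 70.1 for Ccl9 and 1.93 to 3.63 for Ccl4. Without megakaryocyte-list and erythroid-list cells 694 genes were at least 2-fold higher (1126 with them), 462 lower (300) and 0 window genes higher (1). With no limit on CPM 5946 genes were higher and 2579 lower. With 10 UMIs of Dntt or Mpo and 10 of Hlf per 10000 as thresholds, 0 of the 7 genes were at least 2-fold higher in Dntt-positive cells (3) and 1 in Hlf-high cells (0). Without the highest Scrublet scores 1 was at least 2-fold higher in Hlf-high cells. TMM moved the median log2 ratio of all genes from 0.12 to -0.01 and the median of ratios to -0.02. Within Hlf-high cells Ccl4 ran from 1.01 to 1.33, Ccl3 from 19.6 to 31.5, Wfdc17 from 10.03 to 15.2, Wfdc18 from 6.61 to 30.1 and Ccl9 from 12.3 to 27.9 over 6 alternatives. In Mpo-positive over other cells Wfdc17 ran from 0.233 to 0.631 and Wfdc18 from 0.163 to 0.554 over 6 alternatives, the highest at 1 Mpo UMI, where neither was past 2-fold. Depth limits Ccl6 and Wfdc21 in the LT-HSC library, with 12 and 6 UMIs, and Ccl9 in its Hlf-high cells, with 4.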
